A study of Mus musculus with 8 samples.

Results

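Entpd1, Nt5e and Adora2a, the genes of an enzyme pair that makes extracellular adenosine and of a receptor that senses it, were followed in mouse regulatory T cells (Treg) across 8 libraries. They were taken by name and are 3 of the 21883 protein-coding genes of the RefSeq table used (GRCm38.p6, the assembly known as mm10). Each gene was read over its annotated span with 5 kb on both sides. The study sorted Treg from C57BL/6 mice aged 8 to 12 weeks. The silencing-linked mark H3K9me2 (dimethylation of histone H3 at lysine 9) was mapped in tumour Treg, with 3 libraries from mice labelled JMJD1CTregcKO, a Treg-specific conditional knockout of the demethylase gene Jmjd1c (cKO), and 3 from mice labelled JMJD1CWT (WT). ATAC-seq, which uses a transposase to tag accessible DNA, was done on JMJD1CWT Treg alone, with 1 library each from tumour and from spleen. The tumour model, the promoter that drives deletion, the number of animals in a library and the fluorescent marker of the sort are not given in the sources used here. The titles call the H3K9me2 assay CUT&RUN, a method that cleaves antibody-bound chromatin with a nuclease, whereas the protocol names a kit for CUT&Tag, where a transposase takes the nuclease's place.

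The pathway runs outside the cell. CD39, the product of Entpd1, strips phosphates from ATP and ADP to leave AMP, and CD73, the product of Nt5e, removes the last phosphate to give adenosine. Adenosine binds the A2a receptor, the product of Adora2a, which couples to a stimulatory G protein and raises cAMP, and in T cells this dampens activation. Treg of mice carry CD39 and CD73 on their surface, and the release of adenosine is one of the ways in which they restrain other lymphocytes.

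The deposited values are lists of peaks called in each library alone, with 24774509 to 30313851 tags behind each H3K9me2 library and 11293674 (tumour) and 11068821 (spleen) behind the ATAC libraries. A tag is the caller's unit of read count and need not be a whole number, and normalised tags are tags scaled to a library of 10000000. The tumour call found 27625 ATAC peaks on the autosomes, X and Y and the spleen call 13078. In the tumour library 11.03% of tags lay in peaks, against 4.77% in spleen. As a check of the cell labels, peaks were counted in marker genes. Over all protein-coding genes, 59.9% held a tumour peak and 47.1% a spleen peak. Foxp3, which defines the Treg lineage, held 2 peaks in each tissue, and 5 of 6 Treg genes held a peak in both, Ctla4 being the exception with 0 in each. All 6 T cell genes held a peak in both, with 15 peaks in tumour and 9 in spleen. Of 6 CD8 T and NK cell genes, Cd8a, Cd8b1, Klrb1c and Ncr1 held 0 in both tissues. Prf1 held 2 in tumour and 1 in spleen and Eomes 1 in each, so the list held 3 peaks in tumour and 2 in spleen. Of 5 B cell genes, Ms4a1 and Cd79b held 0 in both, Cd79a and Pax5 1 in each tissue, and Ebf1 1 in tumour and 0 in spleen. That list held 3 and 2. Of 6 myeloid genes, Itgam (2 peaks), Spi1 (3) and Cd14 (2) held peaks in tumour and 0 in spleen, while Lyz2, Csf1r and Adgre1 held 0 in both. Of 6 stromal and endothelial genes, Pecam1 held 7 peaks in tumour and 1 in spleen, Col1a1 1 in each, and Cdh5 0 and 1. Col1a2, Pdgfrb and Kdr held 0, and the list held 8 and 3. The 6 melanocyte and epithelial genes held 4 peaks in tumour and 3 in spleen. Pmel held 3 in tumour and 2 in spleen, Mlana 1 and 0, and Dct 0 and 1, with Tyr, Epcam and Krt8 at 0. The H3K9me2 peaks do not check the deletion of Jmjd1c. The part of other cells in the tumour peaks described next was not tested.

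Entpd1 lies on chromosome 19 (40612366 to 40741602), Nt5e on chromosome 9 (88327609 to 88372089) and Adora2a on chromosome 10 (75316877 to 75334792). Around the annotated starts, the data bear on the promoter sequences of Entpd1 and Nt5e. RefSeq (GRCm38.p6) gives 2 promoter windows for Entpd1 and 1 for Nt5e, each from 250 bases before to 50 after a start and all on the plus strand. They are shown because the first Entpd1 window lies under an ATAC peak of both tissues, the second under none, and the Nt5e window under the edge of a tumour peak. Capitals mark matches to the motifs searched on both strands, which were the cAMP response element TGACGTCA and its core TGACG, the hypoxia response core ACGTG, the GC box GGGCGG, the AP-1 motif TGANTCA, the STAT motif TTCNNNGAA, the Runx motif TGTGGT and the forkhead motif TGTTTAC. The core is a part of the full cAMP response element.
Entpd1, first start, chr19:40612116-40612415: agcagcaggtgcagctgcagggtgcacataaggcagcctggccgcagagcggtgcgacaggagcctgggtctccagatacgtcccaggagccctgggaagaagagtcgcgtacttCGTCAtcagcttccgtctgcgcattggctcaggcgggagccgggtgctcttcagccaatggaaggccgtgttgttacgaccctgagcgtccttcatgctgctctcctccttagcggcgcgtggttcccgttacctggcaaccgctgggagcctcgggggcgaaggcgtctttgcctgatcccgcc
Entpd1, second start, chr19:40659520-40659819: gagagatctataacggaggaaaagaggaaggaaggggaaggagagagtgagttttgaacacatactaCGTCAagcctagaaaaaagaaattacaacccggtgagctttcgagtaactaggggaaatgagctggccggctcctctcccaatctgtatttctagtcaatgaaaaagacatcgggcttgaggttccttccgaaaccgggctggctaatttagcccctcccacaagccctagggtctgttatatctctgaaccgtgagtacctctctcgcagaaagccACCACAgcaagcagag
Nt5e, chr9:88327359-88327658: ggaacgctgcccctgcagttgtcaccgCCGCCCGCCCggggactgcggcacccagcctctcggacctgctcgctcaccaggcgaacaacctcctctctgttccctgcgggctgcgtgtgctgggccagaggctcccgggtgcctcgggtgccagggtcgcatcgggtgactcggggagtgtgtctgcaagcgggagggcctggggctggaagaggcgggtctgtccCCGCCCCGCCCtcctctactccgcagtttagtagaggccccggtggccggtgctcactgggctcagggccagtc

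The windows differed in base composition. G and C made up 71% of the Nt5e window, 64% of the first Entpd1 window and 48.7% of the second, against a median of 52.7% over 32851 RefSeq promoters of the same length. The Nt5e window held 4 GC boxes, in overlapping pairs 223 and 219 bases and 24 and 19 bases before the start, a motif found in 35.7% of all promoters. Each Entpd1 window held 1 cAMP response element core, 135 bases before the first start and 183 before the second, as did 20.8% of all promoters. The second also held 1 Runx motif 34 bases after the start (16.8% of all promoters). All of these matches were in the reverse orientation, and the other motifs did not occur in these windows.

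Open chromatin was compared by position between tumour and spleen Treg, with 1 library in each tissue and therefore no replicate check. Entpd1 carried 9 tumour peaks and 3 spleen peaks, Adora2a 3 and 2, and Nt5e 2 and 2. The share of genes with at least 1 tumour peak was 59.9%, and 47.1% had at least 1 spleen peak. A count of 9 or more tumour peaks was reached by 0.759% of genes, of 3 or more by 12.7% and of 2 or more by 29.5%, but Entpd1 is long, so peaks were also set against length. Entpd1 held 6.46 tumour and 2.16 spleen peaks per 100 kb, Nt5e 3.67 and 3.67, and Adora2a 10.7 and 7.16, against 2.05 and 1.09 over the regions of all protein-coding genes. Per length, the compact receptor gene was therefore the most densely marked of the 3 by open sites in both tissues and the CD73 gene the least in tumour. The Adora2a values rest on 3 and 2 peaks in a region of 27.9 kb. The value over all genes divides all peaks by all region length, so long genes weigh most in it. Genes of like length were not compared. In cells measured in bulk, the share of cells with an open site and its openness in each cell cannot be told apart.

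At Entpd1 the strongest open site was the start of the gene, in both tissues. The tumour peak chr19:40612154-40612476 covered 262 of the 300 bases of the first promoter window and held 119.1 normalised tags, and the spleen peak there covered the whole window with 38.8. The start of Tctn3, which runs in the other direction and ends 42 bp from Entpd1, lies in the same stretch, so the peak cannot be assigned to either gene. The tallest of the tumour peaks inside the gene, chr19:40639948-40640270, stood 27.7 kb into the span with 87.7 normalised tags, above 91.9% of the tumour list by score. No spleen peak was centred within 27789 bp of it. A run of peaks followed between 66.3 and 79.8 kb, with 28.8, 52.7, 27.4, 19.9 and 11.1 normalised tags in tumour, where spleen had a single peak of 23.5 at 67.0 kb. A further tumour peak at 48.9 kb held 15.1 normalised tags and lay beyond the second annotated start, whose window no peak of either tissue touched. At 96.0 kb both tissues had a peak, with 24.8 normalised tags in tumour and 15.4 in spleen.

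At Nt5e the peaks of both tissues lay at the start, apart from 1. The tumour library had a peak at the start itself (chr9:88327611-88327933, 44.3 normalised tags), which overlapped the last 48 bases of the promoter window, and a second at 1.72 kb with 20.4. The spleen library had a peak at 1.80 kb with 37.0 normalised tags and a weak one at 29.8 kb with 14.5, at the lowest score its call allowed, 15. The start peak had no overlapping spleen peak, but the spleen call did not allow peaks closer than 1738 bp to each other, and the spleen peak was centred 1639 bp away. Whether the start of Nt5e is open in spleen Treg therefore cannot be read from the list.

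At Adora2a one site inside the gene stood apart. The peak chr10:75326542-75326864, 9.83 kb from the lower-coordinate end of the span, held 131.5 normalised tags in tumour, above 97.0% of the tumour list by score. The spleen peak at the same place held 19.0. The tissues were closer at 0.19 kb, where tumour had 26.1 and spleen 22.6 normalised tags. A further tumour peak at 3.60 kb with 39.8 had no spleen peak centred within 3742 bp.

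**Figure D1:**
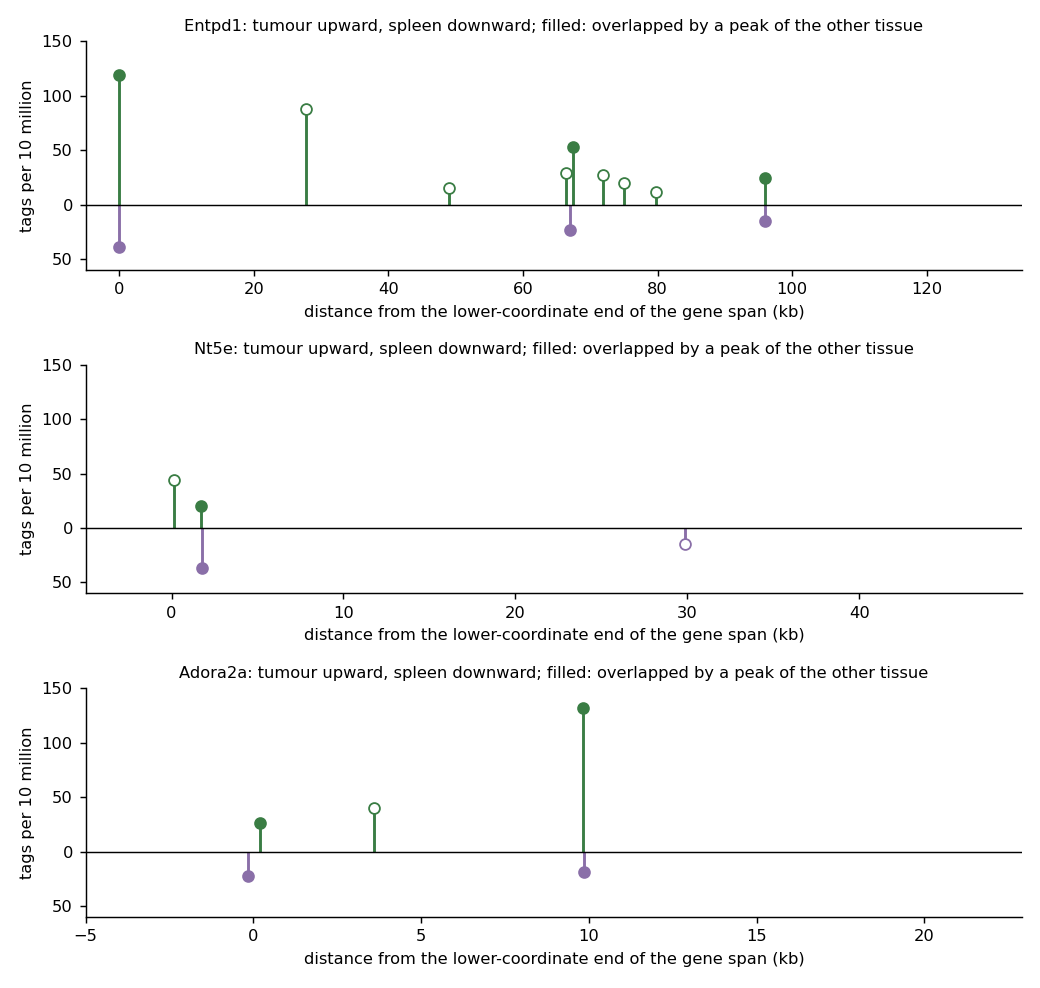
Deposited normalised ATAC tags (vertical axis, tumour upward and spleen downward) of each peak against its distance from the lower-coordinate end of the gene span (kb), 1 library per tissue. The tallest tumour peaks are the start of Entpd1 (119.1) and the site inside Adora2a (131.5), and open circles mark peaks that no peak of the other tissue overlaps.

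Peaks shared by both tissues allow their tags to be set side by side, with the reservations that tags were counted over 322 bp in tumour and 869 bp in spleen and that the tumour library had the larger share of its tags in peaks. The part of either in the ratios was not tested. Of 6 shared places in these genes, 5 had more normalised tags in tumour, beside 77.8% of 11144 such places over the genome. The ratio of tumour to spleen tags was 6.92 at the Adora2a site, and 0.323% of all shared places had a ratio as high. That site is the highest of these 6 places, so the share does not measure how unusual the site is. The ratio was 3.07 at the start of Entpd1 (9.22% as high), and 2.24 and 1.61 at the other Entpd1 places. It was 1.16 at the lower-coordinate end of Adora2a and 0.551 at Nt5e, against a median of 1.55 over the genome. Per kb of window, a scale chosen after seeing the data, the Nt5e place turned, with 63.2 normalised tags in tumour and 42.6 in spleen. On that scale the ratio was 18.6 at the Adora2a site and 8.26 at the start of Entpd1, all 6 places were higher in tumour, and so were 99.3% of places over the genome, with a median of 4.17.

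Tumour peaks that no spleen peak overlapped numbered 6 at Entpd1, 1 at Nt5e and 1 at Adora2a, and 35.3% of genes had at least 1 and 1.07% at least 6. Over the whole list 59.7% of tumour peaks had no spleen partner, so the 6 of 9 at Entpd1 are close to the background share. With peaks nearer than the spleen call's minimum distance left out, a rule chosen after seeing the data, there were 5, 0 and 1. The Entpd1 peak at 79.8 kb had a score of 12.5, under the 15 tags that the spleen call required. Spleen peaks without a tumour partner numbered 0 at Entpd1, 1 at Nt5e and 0 at Adora2a, and 5.63% of genes had at least 1.

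H3K9me2 was compared between cKO and WT tumour Treg as the percent of each gene region covered by peaks. At both genes of adenosine production coverage was higher in every cKO library than in any WT library, as in 13.0% of genes tested. The receptor gene lacked this pattern, and none of the 3 passed the test over all genes. Replicates 1 to 3 of cKO had 4.79, 4.01 and 4.96% of Nt5e covered. The WT replicates, in the same order, had 0, 0.920 and 0.920%. The groups did not overlap, and WT replicate 1 had no peak in the region. Their means were 4.59 ± 0.503% and 0.613 ± 0.531% (SD, n = 3 each), a difference of 3.97 ± 1.18 percentage points (SE; limma p = 0.0103, adjusted p = 0.518; exact two-sided permutation test p = 0.1, the smallest that 3 against 3 can give). Whether replicates are separate animals is not stated in the labels, so the p-values measure the spread between these libraries, which may be technical.

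Of Entpd1, 5.64, 3.69 and 5.36% was covered in the cKO replicates. In the WT replicates the values were 2.996, 1.44 and 1.56%. The groups again did not overlap, with cKO replicate 2 the lowest of its group and WT replicate 1 the highest of the other. The means were 4.89 ± 1.06% and 1.998 ± 0.866% (SD, n = 3 each), a difference of 2.90 ± 1.39 percentage points (SE; limma p = 0.0716, adjusted p = 0.568; exact permutation p = 0.1).

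For Adora2a the covered percent was 0, 0 and 4.12% in the cKO replicates. It was 0.555, 4.74 and 1.79% in the WT replicates. Both groups had a library above 4%, and cKO replicates 1 and 2 had no peak. The means were 1.37 ± 2.38% and 2.36 ± 2.15% (SD, n = 3 each), a difference of -0.988 ± 1.66 percentage points (SE; limma p = 0.570, adjusted p = 0.846; exact permutation p = 0.5). The sign of this difference rests on WT replicate 2, since it was 0.199 percentage points without that library.

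**Figure D2:**
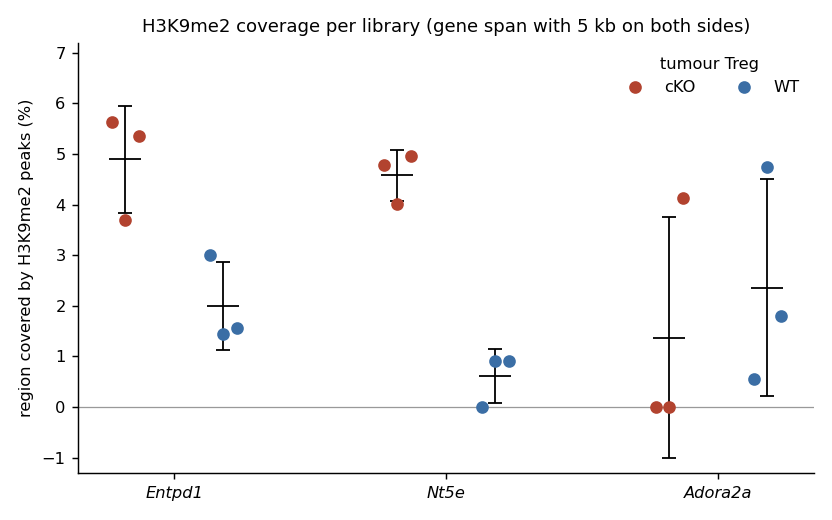
Percent of each gene region covered by H3K9me2 peaks (vertical axis) in the 3 cKO and 3 WT libraries; points are libraries and bars give mean ± SD. At Nt5e and Entpd1 the cKO points lie above the WT points, from 4.01% and 3.69% upward, and at Adora2a the groups overlap.

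These values stand against a genome in which most genes had a higher mean in cKO. Peaks covered 5.19, 4.30 and 3.52% of the genome in cKO replicates 1 to 3. In the WT replicates they covered 3.765, 3.96 and 3.285%, so the groups overlapped. Of 19014 genes tested, 0% passed an adjusted p of 0.05 (0 genes with limma, 1590 with an unadjusted p under 0.05). All cKO libraries lay above all WT libraries in 13.0% of genes and below them in 1.34%, and the mean was higher in cKO in 72.0%. Nt5e and Entpd1 are thus 2 of 2473 genes with this pattern. An unadjusted p under 0.05 with higher coverage in cKO, as at Nt5e, was met by 7.42% of genes, and one with lower coverage by 0.941%. Over all genes tested, the difference had a median of 1.26 percentage points. Relative to the genome-wide coverage of the same library, Nt5e stood at 1.09 ± 0.278 in cKO and 0.171 ± 0.150 in WT, Entpd1 at 1.16 ± 0.338 and 0.544 ± 0.225, and Adora2a at 0.391 ± 0.677 and 0.630 ± 0.529 (SD, n = 3 each). With this scaling the cKO libraries of Nt5e and Entpd1 still lay above those of WT, and the limma adjusted p was 0.702 for Nt5e and 0.718 for Entpd1. The share of all genes whose groups separate under this scaling was not counted. Among genes with an unadjusted p under 0.05, the scaling moved the split of higher against lower from 1411 against 179 to 961 against 311.

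The marker lists were read in the same way, beside the 72.0% of all genes that were higher in cKO and their median of 1.26. The number higher in cKO and the median difference in percentage points were 6 of 6 and 2.42 for myeloid genes, 3 of 5 and 2.52 for B cell genes, and 3 of 5 and 1.80 for melanocyte and epithelial genes. They were 4 of 6 and 1.41 for T cell genes, 5 of 5 and 1.05 for Treg genes, 4 of 6 and 0.476 for stromal and endothelial genes, and 2 of 5 and -0.40 for CD8 T and NK cell genes. In these lists 0 genes passed the limma threshold. The part of other cells in the values of Nt5e and Entpd1 was not tested.

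The order of the genes differed between the genotypes. In cKO the covered percent was Entpd1, Nt5e and then Adora2a from high to low, with Entpd1 and Nt5e within each other's spread. In WT it was Adora2a, Entpd1 and then Nt5e, with both Entpd1 and Nt5e within the spread of Adora2a. The first place of Adora2a rested on WT replicate 2, since without that library the WT means were 1.18% for Adora2a, 2.28% for Entpd1 and 0.460% for Nt5e. Among all 21883 genes, with no filter on coverage, the Nt5e mean was at or above that of 17.3% of genes in WT and 61.4% in cKO. The shares were 44.4% and 64.7% for Entpd1, and 51.2% and 18.6% for Adora2a. The median gene had 2.30% covered in WT and 3.64% in cKO.

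The peaks behind these values were short and rested on few tags. The 3 genes held 71 H3K9me2 peaks over the 6 libraries, 49 in cKO and 22 in WT, and 56 of them had the caller's minimum length. Entpd1 held 13, 9 and 12 peaks in the cKO replicates and 8, 4 and 4 in WT. Nt5e held 4, 4 and 5 in cKO and 0, 1 and 1 in WT, and Adora2a 0, 0 and 2 and 1, 2 and 1. Scaling the deposited normalised tags back to the library total gave 4 to 12.5 tags per peak, with a median of 5.5. At Nt5e the peaks of a library held 26, 21.5 and 30.5 tags together in the cKO replicates and 0, 4 and 5 in the WT replicates. At Entpd1 they held 82.5, 61 and 83 in cKO and 39.5, 22 and 22.5 in WT. Each value thus rests on fewer than 100 tags, and at Nt5e in WT on 5 or fewer.

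Of the 71 peaks, 31 had a score of exactly 5, the lowest that the call accepted, and all 71 were under 10. Scores ran from 5 to 7 at Nt5e, 5 to 9 at Entpd1 and 5 to 6.5 at Adora2a, while the median score of a whole H3K9me2 list was 8 to 9.5. The stronger 50% of each list accordingly kept 1 of the 71 peaks, an Entpd1 peak in cKO. With lists of equal length, cKO replicate 1, which had the longest list and kept only scores of 8 and more, fell to 0% at all 3 genes. Nt5e then stood at 0, 1.25 and 4.04% in the cKO replicates and 0, 0 and 0.920% in WT, and Entpd1 at 0, 1.20 and 4.64% and 0.837, 0.720 and 1.56%. The groups overlapped under that setting at both genes, and the differences shrank to 1.46 (limma adjusted p = 0.990) and 0.907 percentage points (limma adjusted p = 1).

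**Figure D3:**
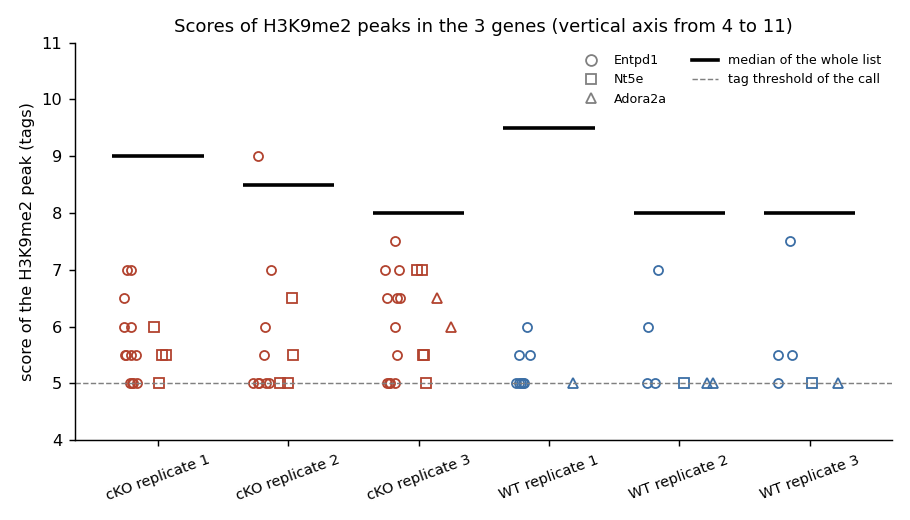
Score in tags (vertical axis, from 4 to 11) of each H3K9me2 peak in Entpd1, Nt5e and Adora2a by library; black bars give the median score of the library's whole list and the dashed line the tag threshold of 5. All but 1 of the 71 peaks lie below the median of their own list.

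Within Nt5e the cKO peaks were spread over the region and met at 1 place. Upstream of the gene, from -3.76 to -2.32 kb relative to the start, peaks of all 3 cKO libraries and of WT replicate 3 formed a chain in which each overlapped the next. The 5 kb before the start was covered over 20.04, 15.9 and 13.9% in the cKO replicates and 0, 0 and 10.02% in WT. The gene span was covered over 2.49, 3.12 and 3.38% in cKO and 0, 1.13 and 0% in WT, and the 5 kb after the gene over 10.02, 0 and 10.02% in cKO and 0% in each WT library. By the cKO means, the flank before the start was the most covered of these stretches (16.6%) and the span the least (2.997%), an order that the WT libraries and cKO replicate 2 did not follow. The other 11 of 12 places were each called in 1 library. Within 2 kb on both sides of the start, cKO replicates 1 and 2 had 9.10 and 13.4% covered and the other 4 libraries 0%.

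Within Entpd1 the difference lay in the gene span, and the start went the other way. The span was covered over 5.27 ± 1.14% in cKO and 2.05 ± 1.03% in WT. Over 4 equal parts of the span, in the direction of transcription, coverage was 8.66, 4.42, 3.10 and 4.92% on average in cKO and 2.84, 1.20, 2.58 and 1.55% in WT. The first of these had 11.8, 5.04 and 9.19% covered in the cKO replicates and 4.65, 0.854 and 3.03% in the WT replicates, and its mean was the highest of the 4 in both genotypes. At the first start, however, WT replicates 2 and 3 each had a peak and covered 12.5% of the 4 kb around it, while WT replicate 1 and all 3 cKO libraries had 0%. Each of these 2 peaks held 5 tags and had a score of 5, the lowest that the call accepted. Around the second start no library had a peak within 2 kb. Of 36 distinct places in the gene, 26 were called in 1 library, 5 in both genotypes, 4 in more than 1 cKO library with no WT library, and 1, the start, in more than 1 WT library with no cKO library. Peaks that overlapped, also in a chain, were joined into 1 place. The place with most libraries, from 28.3 to 29.9 kb, was such a chain, with peaks of all 3 cKO libraries and WT replicate 1. In it the peaks of cKO replicates 1 and 3 did not overlap each other.

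Within Adora2a the peaks kept to the lower-coordinate end and the flanks. The 6 places were each called in 1 library, and none lay in the span beyond 3.40 kb from that end. The cKO peaks were both from replicate 3, on either side of the lower-coordinate end.

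**Figure D4:**
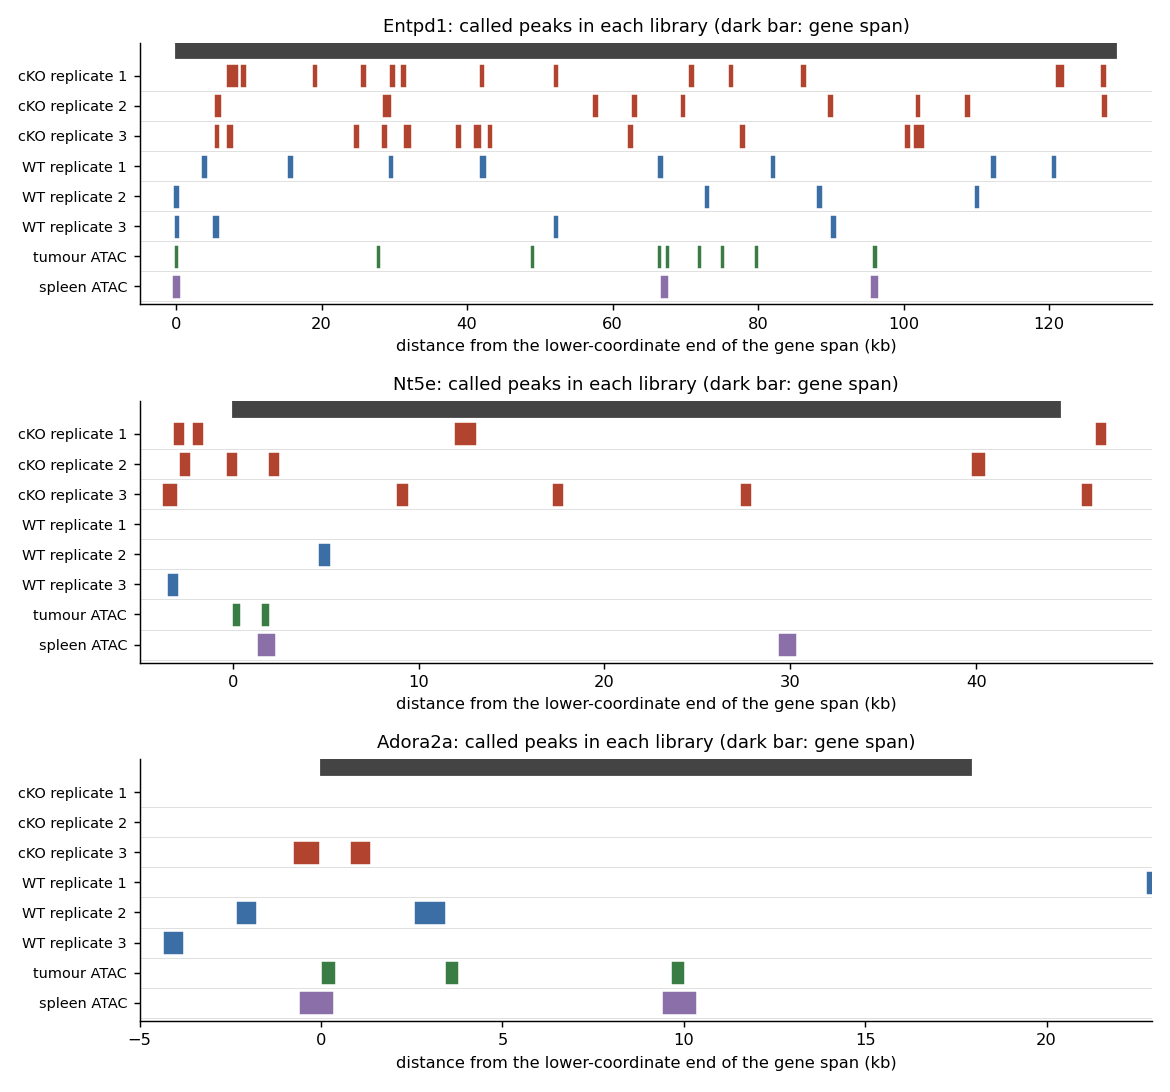
Position of every called peak in each of the 8 libraries, as distance from the lower-coordinate end of the gene span (kb); the dark bar is the gene span and each row a library. In Nt5e 13 peaks lie in the cKO rows and 2 in the WT rows, in Entpd1 34 and 16, and in Adora2a 2 and 4.

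Contacts between open sites and H3K9me2 peaks were counted next. Of the 14 tumour ATAC peaks in these genes, 3 were touched by an H3K9me2 peak of any library, against 34.9% of the whole tumour list, and of the 7 spleen peaks 4 were touched, against 45.7%. The tumour peaks touched were the start of Entpd1 (WT replicates 2 and 3), the Entpd1 peak at 66.3 kb (WT replicate 1) and the start of Nt5e (cKO replicate 2). The spleen peaks touched were the start of Entpd1 (WT replicates 2 and 3) and the Entpd1 peak at 67.0 kb (WT replicate 1). With them were the Nt5e peak at 1.80 kb (cKO replicate 2) and the peak at the lower-coordinate end of Adora2a (cKO replicate 3). All H3K9me2 libraries are from tumour Treg. The spleen windows are wider, 869 bp against 322 bp, and the part of width in these contacts was not tested. Contact in at least 2 WT libraries and no cKO library, as at the start of Entpd1, was found for 1.25% of all tumour peaks. That pattern was picked from the peak that showed it, so the share does not measure how unusual the start is. At the tumour site 27.7 kb into Entpd1, the nearest H3K9me2 peak lay 1653, 743 and 584 bp from the centre in the cKO replicates, and 1471, 27468 and 22033 bp in the WT replicates. WT replicate 1 was thus nearer than cKO replicate 1, and the site was taken as the tallest inside the gene, with no count of such distances over the list. At the strong Adora2a site the medians of that distance were 14926 bp in cKO and 12935 bp in WT, and the nearest peak of any library lay 6424 bp away, in WT replicate 2.

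The other genes of the pathway were read in 6 lists of 51 genes, of which 50 had enough coverage to be tested. With limma 0 passed, 38 had a higher and 11 a lower mean in cKO, and in 7 all cKO libraries lay above all WT libraries (14%, beside 13.0% of all genes). The median difference was 1.22 percentage points, beside 1.26 over all genes tested. Among enzymes that act outside the cell, 10 of 11 had a higher mean in cKO, with a median of 1.47. The largest difference was at Enpp1, which splits ATP to AMP and pyrophosphate. Its coverage was 8.77 ± 1.19% in cKO against 3.35 ± 1.38% in WT, with a limma adjusted p of 0.541. Next was Cd38, an NAD-consuming surface enzyme, with 5.49 ± 1.01% and 1.87 ± 0.935% (limma adjusted p = 0.568). In release and sensing of ATP, 8 of 10 were higher, with a median of 1.22, and P2ry12, an ADP receptor, had 9.12 ± 4.31% in cKO and 3.06 ± 1.13% in WT, while P2rx5, an ATP-gated channel, had 4.47 ± 4.56% and 1.82 ± 3.16%.

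The remaining lists covered removal, transport and response. Among genes for breakdown or salvage of adenosine, 5 of 8 tested were higher, with a median of 0.402. Nt5c2, a cytosolic nucleotidase, had 5.68 ± 0.930% in cKO and 2.06 ± 1.17% in WT, and Pnp, which splits inosine and guanosine, 5.88 ± 5.29% and 2.95 ± 3.13%. Nucleoside transporters were higher in 2 of 6 and lower in 3, with a median of -0.58, and Slc28a2 had 7.13 ± 4.70% and 8.75 ± 1.29% and Slc29a1 0.870 ± 1.51% and 2.42 ± 2.62%. All 3 other adenosine receptors were higher in cKO, with a median of 1.55, of which Adora3 had 7.53 ± 5.32% and 3.64 ± 6.31% and Adora1 1.91 ± 1.17% and 0.361 ± 0.626%. Among cAMP signalling genes 10 of 12 were higher, with a median of 1.65, and Pde3b, a phosphodiesterase that breaks down cAMP, had 6.53 ± 0.882% and 2.04 ± 1.16% (limma adjusted p = 0.549). Prkar1a, a regulatory subunit of the cAMP-dependent kinase, had 4.47 ± 2.46% and 1.96 ± 2.14%. Across all 6 lists the lowest limma adjusted p was 0.541.

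**Figure D5:**
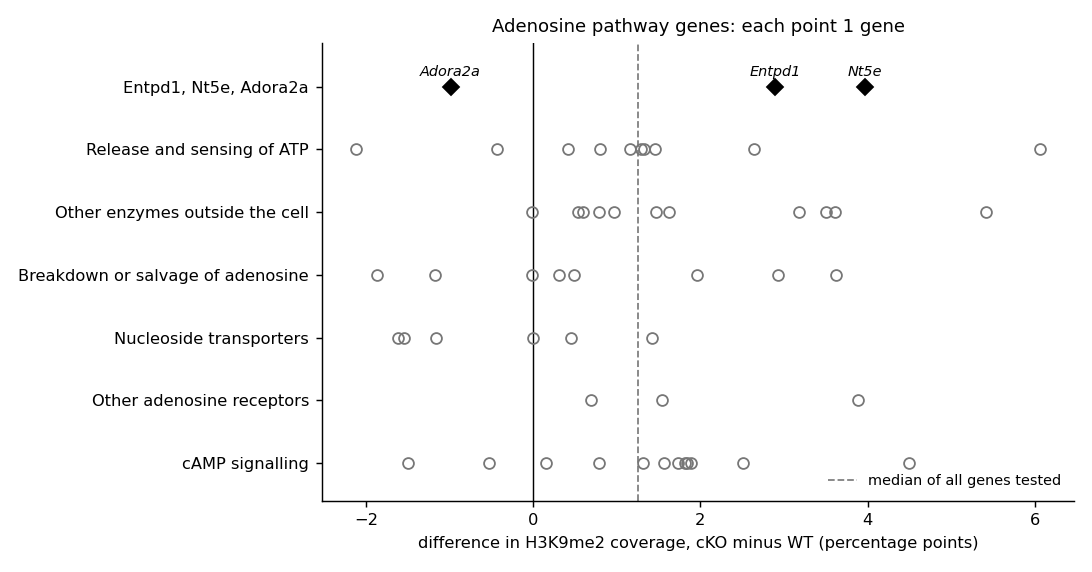
Difference in H3K9me2 coverage between cKO and WT (horizontal axis, percentage points) for the 3 genes (diamonds) and for each tested gene of 6 pathway lists (circles); the dashed line is the median of all genes tested (1.26). Nt5e (3.97) and Entpd1 (2.90) lie to the right of that line and Adora2a (-0.988) to the left of 0.

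Open chromatin in the same lists was counted by gene. A tumour peak was present in 44 of 51 genes and a spleen peak in 38, with 125 and 68 peaks in all, where 59.9% and 47.1% of all genes had one. Of the adenosine receptors, Adora1 (2 peaks), Adora2b (1) and Adora3 (2) had tumour peaks and 0 in spleen, and Adora2a had peaks in both tissues. The share of all genes with a tumour peak and no spleen peak was not counted. The tumour list is also the longer, with 27625 peaks against 13078. All 12 cAMP signalling genes had peaks in both, with the highest tumour counts at the phosphodiesterase genes Pde4d (17 in tumour, 12 in spleen) and Pde4b (12 and 3). The counts and totals of these lists were not set against gene length, so they do not rank genes by openness.

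The genes closest in H3K9me2 pattern were found by the root mean square difference of the covered percent over the 6 libraries. For Nt5e they were Gmeb2 (0.232 percentage points), Utp18 (0.327) and Cd101 (0.447), and for Entpd1 Vsnl1 (0.343), Manea (0.491) and Lclat1 (0.593). For Adora2a they were Ciapin1 (0.499), Baiap3 (0.506) and Lix1l (0.583). Gmeb2 had means of 4.33% in cKO and 0.716% in WT, Vsnl1 4.88% and 1.81%, and Ciapin1 1.15% and 2.04%. Of other annotated genes in the 3 regions, the pseudogenes Gm16027 and Gm8783 and the non-coding RNA gene Gm41846 lie inside Entpd1, and the microRNA gene Gm51281 lies 1807 bp before Nt5e. Tctn3, Snx14 and Specc1l reach into the flanks of Entpd1, Nt5e and Adora2a.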

How the data were processed

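HOMER findPeaks was run by the authors on every library separately and with no control library, per the file headers. The H3K9me2 calls used the histone style, a tag threshold of 5 and a Poisson p-value of 0.05 against the surrounding 10 kb, and the ATAC calls a factor style. Builds and tools in the submitters' processing notes are mm10, HOMER, deepTools, Picard, SAMtools 1.11, Bowtie2 2.4.2 and Trim Galore 0.6.6, and no source used here states a transposase shift. The deposited tag signal is scaled to 10000000 tags, per the file headers, and the deposited score, fold over the local region, p-value and (ATAC) focus ratio, a fraction, are the caller's. The authors' H3K9me2 lists hold 24.4 to 43.9% of the peaks their headers count, with folds of 2.01 and more, and what shortened them is not stated.

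Peaks on chromosomes outside the autosomes, X and Y were left out. Peaks of a library were merged, and the covered percents were tested with limma 3.58.1 in R 4.3.3 (trend, group as the single term, Benjamini-Hochberg over genes with a mean of at least 1%, threshold 0.05). The fit was checked on simulated normal values with planted shifts larger than the differences at these 3 genes. That check does not show how often a difference of their size would be found. ATAC peaks were shared where they overlapped by 1 bp. Named genes were the 3 genes themselves, the 2 largest differences per pathway list, genes in the regions and the 3 nearest patterns per gene. Genes named for ATAC counts were chosen after their values were seen. The genes, lists and tests were chosen with earlier results of these data known. The alternatives tried were other scalings, list lengths, filters and flanks, peak numbers in place of coverage, a replicate block, and leaving out each library. Of the marker lists, 1 gene is not reported here.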

Additional observations from a re-analysis of the deposited data

How the results depend on the processing

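The higher H3K9me2 coverage of Entpd1 and Nt5e in cKO kept its direction under each alternative that gave a value (15 for Entpd1, 14 for Nt5e). Many of these could not have reversed it, because all cKO libraries lay above all WT libraries at both genes. Such were leaving out a library, the arcsine square root scale, no filter and the replicate block. Neither gene passed the limma threshold under any alternative, with limma adjusted p from 0.393 to 1 and from 0.324 to 0.990. Leaving out each library in turn gave 2.52 to 3.50 percentage points for Entpd1, 3.67 to 4.26 for Nt5e and -2.36 to 0.199 for Adora2a. The Adora2a difference, which was positive without WT replicate 2, also turned positive with lists of equal length (0.776) and with 20 kb on both sides (1.07), and the cause was not tested. With the stronger 50% of each list Nt5e and Adora2a had no peak and gave no value, and Entpd1 was at 0.120. The number of genes passing limma was 0 under every alternative except 1 on the arcsine square root scale and 12 with no filter on low coverage, where 21883 genes were tested; the cause was not tested.

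Replicate numbers were shared between cKO and WT, but deviations of same-numbered libraries correlated at 0.00506 to 0.0757 across genes, so the numbers were not taken as pairs. With a replicate block 0 genes passed, as without it, and Nt5e kept 3.97 percentage points (limma adjusted p = 0.544). Of the cKO libraries, replicates 2 and 3 did not correlate best with their own number.

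ATAC counts moved as follows. With the stronger 50% of each list, spleen peaks fell to 1 at Entpd1, 1 at Nt5e and 0 at Adora2a. Tumour peaks fell to 6 at Entpd1 and 1 at Nt5e. Tumour peaks without a spleen peak fell to 5 at Entpd1 and rose to 3 at Adora2a. With a tumour list as long as the spleen list, Entpd1 had 6 tumour peaks, of which 3 were without a spleen peak, and Nt5e had 1 tumour peak. With peaks set to 200 bp, Adora2a had 2 without a spleen peak and Entpd1 had 7. Entpd1 also had 7 where an overlap of 50% of the shorter peak was required. With 20 kb on both sides, tumour peaks numbered 4 at Nt5e and 5 at Adora2a, with 2 and 2 lacking a spleen peak. By the minimum distance of the spleen call, an alternative chosen after seeing the data, Nt5e had 0. Per kb of window, also chosen after seeing the data, the ratio of tumour to spleen tags at the shared Nt5e place turned from 0.551 to 1.48, since the tumour windows are narrower. H3K9me2 peaks of 4 to 12.5 tags are at the limit of this depth, and a broad, even domain would not be called.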
